A study of Mus musculus with 10 samples.

Results

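A set of 10 genes that encode regulators of lung epithelial identity were followed across single-cell transcriptomes of the distal mouse lung: Nkx2-1, Foxa1, Foxa2, Cebpa, Gata6, Sox9, Sox4, Hmga2, Id2 and Klf5. They were matched by gene symbol, which found 10 of 10 among the 31053 genes listed in the files, and all 10 passed the filter on low counts in each fit. The study traced alveolar type 2 (AT2) cells, the surfactant-making stem cells of the air sacs, and compared mutant AT2-derived cells with wildtype cells. In all, 10 libraries were analysed, which fell into 6 groups.

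All mice carried Sftpc-CreERT2, a tamoxifen-inducible Cre recombinase driven by the surfactant protein C promoter, so labelling begins in AT2 cells, and all received 3 doses of tamoxifen. They were adults of both sexes. In Sftpc-CreERT2;R26R-Confetti (Confetti) mice, recombined cells are wildtype and express 1 of several fluorescent proteins; 1 RFP+ and 1 YFP+ library were made. In Sftpc-CreERT2;Red2Kras (Red2Kras) mice, RFP marks mutant cells, and YFP marks wildtype cells of the same lungs; 2 RFP+ and 2 YFP+ libraries were made at 4 days and 2 RFP+ and 2 YFP+ libraries at 2 weeks after induction. The labels give no time for the Confetti libraries, which the study's methods place at 2 weeks, so comparisons of 4 days libraries with Confetti differ in time as well. EpCAM+ epithelial cells were sorted by colour, and each sample pooled at least 2 lungs. The methods list 1 Confetti sample and 2 Red2Kras samples a time, each sorted into both colours, so the 2 Confetti libraries appear to be both colours of 1 pool. P-values against Confetti therefore hold no spread between pools on the Confetti side, and other p-values measure the spread between pools. The RFP label stands in for the mutation and the YFP label for wildtype cells, and neither was checked here.

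Nkx2-1 is the homeodomain factor that defines lung and thyroid epithelium, and with the forkhead factors Foxa1 and Foxa2 it keeps lung cells from taking on gut-like programs. Cebpa and Gata6 act beside it in AT2 maturation and surfactant gene expression. Sox9 and Id2 mark the distal tip of the embryonic lung bud, where branching progenitors reside; Hmga2, an architectural chromatin protein of embryonic and tumor cells, and Sox4 are linked to progenitor and invasive states, and Klf5 is a zinc-finger factor of epithelial progenitors.

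All 10 genes were placed on GRCm38 with GENCODE M21. Nkx2-1 lies on chromosome 12 from 56531958 to 56536908 on the minus strand, Foxa1 on chromosome 12 from 57540628 to 57546916 on the minus strand, Id2 on chromosome 12 from 25093799 to 25097140 on the minus strand, and Cebpa on chromosome 7 from 35119293 to 35121928 on the plus strand. Foxa2 lies on chromosome 2 from 148042877 to 148046969 on the minus strand, Sox9 on chromosome 11 from 112782224 to 112787760 on the plus strand, Sox4 on chromosome 13 from 28948919 to 28953713 on the minus strand, and Klf5 on chromosome 14 from 99298691 to 99315036 on the plus strand. Hmga2 spans 115195 bases of chromosome 10, from 120361275 to 120476469 on the minus strand, and Gata6 spans 33572 bases on a plus strand. Nkx2-1, Cebpa, Gata6, Sox4 and Hmga2 each overlap a counted gene on the opposite strand.

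Promoter sequence is shown for the genes the results turn on: Hmga2, whose UMIs came mostly from 1 cell state, and Nkx2-1 and Cebpa, whose sums were lowest in the library where Hmga2 stood highest. Gata6 and Id2 were lowest in that library too. Each window holds the 250 bases before the annotated start, taken from RefSeq (GRCm38.p6), which held windows for 7 of the 10 genes and none for Sox9, Gata6 and Klf5. Sequences read 5′ to 3′ on the strand of the gene, and capitals mark motif matches: a GC box in Hmga2 and Nkx2-1 and a TATA box in Cebpa.
Hmga2, chr10:120476470-120476719, minus strand: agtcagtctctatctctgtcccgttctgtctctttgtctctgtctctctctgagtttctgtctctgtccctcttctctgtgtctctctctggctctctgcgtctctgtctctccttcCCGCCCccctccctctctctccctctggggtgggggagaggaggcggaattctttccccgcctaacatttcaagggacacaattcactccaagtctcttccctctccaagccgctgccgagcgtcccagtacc
Nkx2-1, chr12:56536909-56537158, minus strand: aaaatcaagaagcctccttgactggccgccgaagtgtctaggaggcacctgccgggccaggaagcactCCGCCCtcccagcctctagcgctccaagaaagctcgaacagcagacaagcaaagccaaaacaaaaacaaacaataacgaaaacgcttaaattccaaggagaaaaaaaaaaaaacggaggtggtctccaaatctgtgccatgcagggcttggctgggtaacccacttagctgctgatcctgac
Cebpa, chr7:35119043-35119292, plus strand: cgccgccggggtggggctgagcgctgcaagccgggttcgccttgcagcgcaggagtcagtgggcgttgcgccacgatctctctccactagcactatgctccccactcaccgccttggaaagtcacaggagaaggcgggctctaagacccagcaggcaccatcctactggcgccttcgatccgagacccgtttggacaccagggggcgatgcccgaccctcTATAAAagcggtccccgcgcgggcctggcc
A 27-base stretch of the Foxa1 window is shown because it alone among the matched genes held the forkhead motif of its own protein family, 141 bases before the RefSeq start. That start lies inside the GENCODE gene given above, so the stretch is inside the Foxa1 gene by GENCODE and not upstream of it. The Id2 window and 2 of the 3 Foxa2 windows likewise lie inside their GENCODE genes.
Foxa1, chr12:57546236-57546262, minus strand: atactgctttGTAAACAaagtgagggc

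Letters of 10 motifs were searched on both strands in all 32851 windows of that length, and a match is a description of letters only. The GC box (GGGCGG or CCGCCC), found in 32.7% of all windows, was present in Nkx2-1, Foxa1, Foxa2, Hmga2 and Id2, at 133 bases before the start in Hmga2 and 182 bases before it in Nkx2-1. The TATA box (TATAAA), found in 12.4% of windows, lay 30 bases before the start of Cebpa and in 1 of the 3 windows of Foxa2. That Foxa2 window also held the letters of an NKX2-1 motif (CTTGAG, 13.3% of windows) and of a GATA motif (AGATAA, 9.99%), whose letters overlap there by 2 bases. The CCAAT box (CCAAT, 33.8%) was present in Foxa1, Foxa2, Sox4 and Id2, and the forkhead motif (TGTTTAC, 3.17%) in Foxa1. AP-1 (TGANTCA, 6.75%), C/EBP (TTGCNNAA, 9.56%), SOX (CATTGT, 10.7%) and ETS (CCGGAAGT, 2.88%) letters were absent from the windows of all 7 genes. The GC content of the windows was 56.4% in Hmga2, 50.8% in Nkx2-1 and 66.4% in Cebpa, against a median of 52.4% over all windows.

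After filtering, 32698 of 42012 barcodes remained, of which 29572 were classed as alveolar, with 1008 to 4223 alveolar cells and 7336824 to 71490396 UMIs (unique molecular identifiers, single counted transcripts) per library. Median depth ran from 3251 UMIs per alveolar cell in Confetti YFP to 15810 in 2 weeks RFP replicate 1. All 8 AT2 markers were detected in the alveolar sums of all 10 libraries, from 98835 CPM of these markers in 2 weeks RFP replicate 2 to 217238 in 2 weeks YFP replicate 2. Immune markers (9 listed) summed to 13.6 to 35.4 CPM, with Cd3e at 0 in 7 of the 10 libraries. No pair of libraries shared more than 0.496% of the barcodes of the smaller one. The replicates of a group stood apart: AT2-like cells made up 88.9% of 4 days RFP replicate 1 but 2.52% of replicate 2, and 95.03% against 1.02% of the 4 days YFP libraries. Cells with Xist but no Y-linked transcript, the pattern of female mice, made up 100% of the sexed cells in both Confetti libraries, 25.8% to 85.1% in the replicates numbered 1 of Red2Kras and at most 0.536% in those numbered 2. Sex composition therefore moved with replicate and with cell state, and it also differed between Confetti and Red2Kras. It was 35.2% and 0.0519% female in the 2 weeks RFP libraries, so comparisons with Confetti cannot tell sex and genotype apart. The part of sex in the results was not tested. Results that rest on 1 of these libraries are given with and without it.

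Levels are given as CPM (counts scaled to a common library total), from UMIs summed over the alveolar cells of a library and scaled with TMM. In such sums, fewer cells that express a gene cannot be told apart from less RNA of that gene per cell. Differences are log2 fold changes ± SE from the quasi-likelihood F test of edgeR, with p-values adjusted over all genes tested and a threshold of 0.05.

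Hmga2 and Sox9, the embryonic regulators, showed the widest range of the 10 genes. Both were nearly absent from wildtype AT2-derived cells and were high in 3 of the 4 mutant libraries. Hmga2, the chromatin protein, stood at 0.121 CPM in Confetti RFP and 0.458 in Confetti YFP (2 and 7 UMIs), at 0.376 and 0.878 in 4 days YFP replicates 1 and 2, at 3.94 and 155 in 4 days RFP, at 2.45 and 5.13 in 2 weeks YFP and at 56.2 and 46.5 in 2 weeks RFP. All 4 RFP libraries were above both Confetti libraries, but 4 days RFP replicate 1 lay below 2 weeks YFP replicate 2, so RFP and YFP overlapped when both times were pooled. Sox9, a distal tip progenitor factor, stood at 0.423 and 0.523 CPM in Confetti RFP and YFP, at 0.188 and 0.234 in 4 days YFP (2 and 4 UMIs), at 0.961 and 44.5 in 4 days RFP, at 1.62 and 4.01 in 2 weeks YFP and at 25.8 and 17.3 in 2 weeks RFP. Its order over the libraries was close to that of Hmga2, with the same 3 mutant libraries on top (r = 0.984 over 10 libraries, on log2(CPM + 1), a description).

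Asked how mutant cells at 2 weeks differ from Confetti, 1 of the 10 genes passed the edgeR test, against 5.42% of all 13776 genes tested. DESeq2 called 16% of all genes there. Hmga2 rose, by 7.73 ± 1.73 on the log2 scale (edgeR adjusted p = 0.0458; 2 against 2 libraries). Against the 9 UMIs of both Confetti libraries together, its rate was 199 times as high in 2 weeks RFP replicate 1 (counting interval 105 to 435, 95%) and 165 times as high in replicate 2 (86.6 to 361). Counting intervals treat each UMI as independent and hold no spread between cells or between libraries. Sox9 was 5.50 ± 1.52 higher in the same comparison and missed the threshold (adjusted p = 0.0642), with counting ratios of 54.7 (33.1 to 98.0) and 36.8 (22.2 to 66.1). DESeq2 called Sox9, and so did edgeR without 4 days RFP replicate 1 (adjusted p = 0.00831; 14.1% of all genes) or without 4 days RFP replicate 2 (adjusted p = 0.00851; 14% of all genes), and over the 10 such fits its adjusted p ran up to 0.223. The Hmga2 call was held when 4 days RFP replicate 1 or replicate 2 was left out, and lost on leaving out any of the 8 other libraries (adjusted p from 0.00314 to 0.193 and log2 fold change from 6.79 to 8.65 over the 10 fits). When all cells that passed the filters or all barcodes were summed, the adjusted p was 0.153 and 0.145, with log2 fold changes of 7.72 and 7.66.

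In the other comparisons neither gene passed in the fit without a block. RFP against YFP over both times gave 5.14 ± 1.12 for Hmga2 (adjusted p = 0.0845) and 4.32 ± 1.13 for Sox9 (adjusted p = 0.0954), and no gene at all passed (0% of 12840 tested by edgeR, 9.84% by DESeq2, which called these 2 of the 10). Unadjusted, 2 of the 10 genes had a p under 0.05 there, as had 2766 of all genes. Without 4 days RFP replicate 1, both passed (Hmga2 adjusted p = 0.0105, Sox9 adjusted p = 0.0146), as did 11.3% of 13130 genes. Without 4 days RFP replicate 2, the differences shrank to 3.44 for Hmga2 (adjusted p = 0.0379, where 0.0685% of genes passed) and 2.84 for Sox9, which then did not pass. RFP and YFP libraries of 1 number and time appear to come from 1 pool of lungs, and with the replicate number within each time as a block, a fit chosen after seeing the data, 16.9% of 13202 genes passed. There 4 of the 10 passed: Hmga2 at 4.78 ± 0.61 (adjusted p = 0.00432), Sox9 at 4.04 ± 0.67 (adjusted p = 0.00880), Sox4 at 0.67 ± 0.19 (adjusted p = 0.0439) and Nkx2-1 at -0.64 ± 0.17 (adjusted p = 0.0319). At 2 weeks alone, RFP against YFP gave 3.84 ± 1.33 for Hmga2 (adjusted p = 0.246) and 3.05 ± 1.31 for Sox9 (adjusted p = 0.302). None of the 10 genes passed there in edgeR (0.00726% of all genes) or in DESeq2 (3.4%), and 2 had an unadjusted p under 0.05, as had 2257 of all 13776 genes.

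At 4 days, the RFP replicates differed widely. The Hmga2 rate relative to Confetti was 14.0 times (6.98 to 31.6) in replicate 1 and 547 times (287 to 1199) in replicate 2, and that of Sox9 was 2.04 (0.982 to 4.31) and 94.4 (56.5 to 170.3). The fitted differences from YFP were 6.88 ± 1.58 for Hmga2 and 6.66 ± 1.71 for Sox9 (both adjusted p = 0.777), and from Confetti 8.35 ± 1.75 (adjusted p = 0.434) and 5.56 ± 1.53 (adjusted p = 0.486). Leaving out either replicate leaves 1 library for 4 days RFP, which is then assumed to vary like the other groups. Without replicate 2 the difference from YFP was 2.56 for Hmga2 and 2.13 for Sox9. Without replicate 1 the library left was the highest of all 10 in both genes, and both passed against YFP (adjusted p = 0.00503 and 0.00725), as did 1.46% of all genes. Against Confetti, the differences were 4.03 for Hmga2 and 1.02 for Sox9 without replicate 2 (neither passed), and 9.32 and 6.55 without replicate 1, when both passed (adjusted p = 0.00462 and 0.00626), as did 2.42% of all genes. No gene passed either comparison in edgeR (0% each; 2 of the 10 at an unadjusted p under 0.05 in each, as had 793 genes against YFP and 1218 against Confetti), against 0.82% (RFP against YFP) and 1.87% (RFP against Confetti) in DESeq2, which called Hmga2 and Sox9 in both.

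In the 2 weeks YFP libraries, sorted as wildtype neighbours, low counts of both genes were present. These libraries held 65 and 32 UMIs of Hmga2 and 43 and 25 of Sox9, which gave Hmga2 rates of 8.68 (4.30 to 19.8) and 18.2 (8.47 to 43.2) times Confetti and Sox9 rates of 3.44 (1.88 to 6.67) and 8.51 (4.31 to 17.4) times. The UMIs were not independent, as 11 of the 43 Sox9 UMIs of replicate 1 came from 1 cell, so these counting intervals are too narrow. Neither passed the test against Confetti (Hmga2 3.89 ± 1.76, Sox9 2.45 ± 1.55, both adjusted p = 0.765), where 0.0218% of genes passed in edgeR and 0.755% in DESeq2, and none of the 10 had an unadjusted p under 0.05. At 4 days, YFP was at 1.47 ± 2.06 for Hmga2 and -1.11 ± 2.07 for Sox9 (both adjusted p = 1.00), on 2 to 15 UMIs per library. None of the 10 passed there (0.029% of all genes in edgeR, 0.0871% in DESeq2) or had an unadjusted p under 0.05. Whether RFP differed from YFP by more at 2 weeks than at 4 days was tested as an interaction, which gave -3.04 ± 1.91 for Hmga2 and -3.61 ± 2.16 for Sox9 (both adjusted p = 1.00). Without 4 days RFP replicate 2 both turned, to 1.30 for Hmga2 and 0.92 for Sox9 (both adjusted p = 0.974). No gene passed the interaction test in edgeR or DESeq2, and none of the 10 had an unadjusted p under 0.05.

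**Figure D1:**
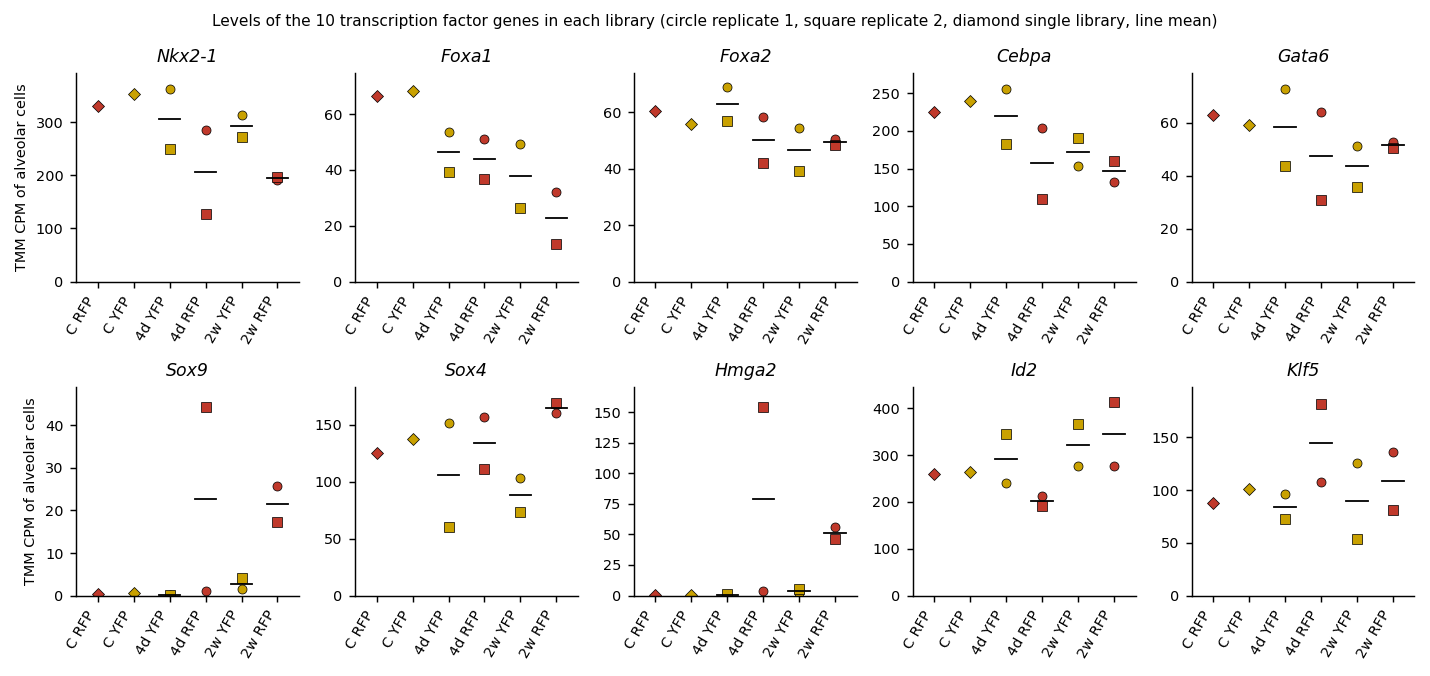
Levels of the 10 genes in each library (y axis, TMM-scaled CPM of alveolar cells, linear from 0; x axis, the 6 groups, C for Confetti, 4d and 2w for 4 days and 2 weeks), with circles for replicate 1, squares for replicate 2, diamonds for single libraries and lines for group means. Hmga2 and Sox9 are high in 4 days RFP replicate 2 and in both 2 weeks RFP libraries, while Foxa1 is below both Confetti libraries in all 8 Red2Kras libraries (6.77% of all genes).

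The lineage factors, in contrast, were detected in all libraries, and their fitted differences between groups lay between -1.57 and 0.25 on the log2 scale. In the edgeR fits with the filter on low counts and no block, none of Nkx2-1, Foxa1, Foxa2, Cebpa and Gata6 passed in any comparison. Nkx2-1, the defining lung factor, stood at 329.6 and 353 CPM in Confetti RFP and YFP, at 362 and 249.9 in 4 days YFP replicates 1 and 2, at 285 and 127 in 4 days RFP, at 313 and 272 in 2 weeks YFP and at 192 and 198 in 2 weeks RFP. The 3 libraries lowest in Nkx2-1 were the 3 highest in Hmga2, and both 2 weeks RFP libraries were below all 4 YFP and both Confetti libraries. RFP averaged 200.4 ± 65.2 CPM and YFP 299 ± 49.2 (SD, n = 4 each), a difference of -0.59 ± 0.27 (adjusted p = 0.237, and 0.0319 with the block within each time), and 2 weeks RFP against Confetti gave -0.81 ± 0.40 (adjusted p = 0.206).

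Cebpa, a leucine zipper factor of AT2 maturation, stood at 225 and 239.8 CPM in Confetti RFP and YFP, at 256 and 183 in 4 days YFP, at 204 and 110.0 in 4 days RFP, at 154 and 190.2 in 2 weeks YFP and at 133 and 160.0 in 2 weeks RFP. Both colours lay below Confetti at 2 weeks. RFP and YFP overlapped at each time, but Cebpa was lower in RFP in 4 of 4 pairs of the same number and time, as were Nkx2-1 and Foxa1 (19.5% of all genes). Hmga2, Sox9, Sox4 and Klf5 were higher in RFP in 4 of 4 such pairs (19% of all genes). Its differences were -0.37 ± 0.24 for RFP against YFP (adjusted p = 0.403) and -0.67 ± 0.36 for 2 weeks RFP against Confetti (adjusted p = 0.237).

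Foxa1, a pioneer factor of the lung endoderm, stood at 66.4 and 68.3 CPM in Confetti RFP and YFP, at 53.6 and 39.2 in 4 days YFP, at 51.1 and 36.7 in 4 days RFP, at 49.2 and 26.5 in 2 weeks YFP and at 31.9 and 13.5 in 2 weeks RFP. All 8 Red2Kras libraries of either colour were below both Confetti libraries, as they were for 6.77% of all genes. The difference of 2 weeks RFP from Confetti was -1.57 ± 0.47 (edgeR adjusted p = 0.0739). It was -2.34 without 2 weeks RFP replicate 1 and -1.11 without replicate 2, each leaving 1 library in the group. DESeq2 called it, where 16% of all genes passed, as did edgeR without the filter on low counts, where 3247 genes passed. The difference of 2 weeks YFP from Confetti was -0.82 ± 0.46 (edgeR adjusted p = 0.765), and RFP against YFP over both times gave -0.43 ± 0.33 (edgeR adjusted p = 0.487).

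Its paralog Foxa2 ranged only from 39.1 CPM in 2 weeks YFP replicate 2 to 68.8 in 4 days YFP replicate 1, with Confetti at 60.3 and 55.7. Gata6, a zinc-finger factor of lung endoderm, ranged from 30.6 CPM in 4 days RFP replicate 2 to 72.9 in 4 days YFP replicate 1, with Confetti at 62.8 and 59.3. Their RFP against YFP differences were -0.14 ± 0.19 for Foxa2 (adjusted p = 0.720) and -0.04 ± 0.28 for Gata6 (adjusted p = 0.9498), with RFP higher in 6 and 8 of 16 pairs of libraries. At 2 weeks both libraries of either colour were below Confetti for both genes, at -0.23 ± 0.28 and -0.24 ± 0.40 in RFP and -0.31 ± 0.28 and -0.48 ± 0.40 in YFP (adjusted p from 0.588 to 0.787). A p that misses the threshold does not show that the levels were alike.

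The remaining progenitor-linked factors spread in different ways. Sox4, a SoxC factor expressed broadly in immature epithelium, stood at 125 and 137 CPM in Confetti RFP and YFP, at 152 and 60.0 in 4 days YFP, at 157 and 111 in 4 days RFP, at 104 and 73.4 in 2 weeks YFP and at 159.9 and 169 in 2 weeks RFP. RFP was higher in 15 of 16 pairs of RFP and YFP libraries (8.75% of all genes reached as many), and at 2 weeks the RFP libraries were above and the YFP libraries below Confetti (2.65% of all genes). The difference over both times was 0.60 ± 0.30 (adjusted p = 0.288, and 0.0439 with the block within each time), and that at 2 weeks 0.89 ± 0.44 (adjusted p = 0.345).

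Klf5 stood at 87.6 and 101 CPM in Confetti RFP and YFP, at 95.8 and 72.8 in 4 days YFP, at 108 and 182 in 4 days RFP, at 126 and 53.4 in 2 weeks YFP and at 136 and 80.6 in 2 weeks RFP. It was higher in RFP in 13 of 16 pairs (20.9% of all genes reached as many), and RFP and YFP separated at 4 days only, by 0.78 ± 0.47 (adjusted p = 0.915). Over both times the difference was 0.50 ± 0.32 (adjusted p = 0.401).

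Id2, an inhibitor of basic helix-loop-helix factors, stood at 259 and 263 CPM in Confetti RFP and YFP, at 240.1 and 345 in 4 days YFP, at 213 and 191 in 4 days RFP, at 278 and 367 in 2 weeks YFP and at 276 and 413 in 2 weeks RFP. RFP lay below Confetti and YFP at 4 days and above Confetti at 2 weeks. The change between the RFP times was 0.77 ± 0.33 (edgeR, adjusted p = 0.449), so it missed the threshold.

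With 2 libraries a group, many genes separate, so non-overlap is read against its share over all genes. Between 2 weeks RFP and Confetti, Sox9, Sox4, Hmga2 and Id2 were higher in both RFP libraries and Nkx2-1, Foxa1, Foxa2, Cebpa and Gata6 lower, that is 9 of 10 genes, where 37.4% of all genes were higher and 36.3% lower in the same sense. Between RFP and YFP at 2 weeks, 3 genes were higher (Sox9, Sox4, Hmga2; 28.3% of all genes) and Nkx2-1 lower (25%). At 4 days, 3 were higher (Sox9, Hmga2, Klf5; 16%) and Id2 lower (15.9%). Over both times, with 4 libraries a colour, none of the 10 separated, where 4.33% of all genes were higher and 4.72% lower.

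Against Confetti at 4 days, Sox9, Hmga2 and Klf5 were higher in both RFP libraries (24.6% of all genes) and Nkx2-1, Foxa1, Cebpa and Id2 lower (24.7%). In 2 weeks YFP, Sox9, Hmga2 and Id2 were above Confetti (25%) and 6 genes below it (27.2%), namely Nkx2-1, Foxa1, Foxa2, Cebpa, Gata6 and Sox4. In 4 days YFP only Foxa1 and Sox9 were below both Confetti libraries (18.6%) and none of the 10 was above both (16.1%). These comparisons share the Confetti libraries and are not independent. Between 2 weeks and 4 days, RFP was higher in Sox4 and Id2 (22.9%) and lower in Foxa1 (19.5%), and YFP was higher in Sox9 and Hmga2 (11.9%) and lower in Foxa2 (12.4%). No gene of all those tested passed the edgeR test of either time comparison (0% each), while DESeq2 called 0.784% in RFP and 0.123% in YFP and none of the 10.

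**Figure D2:**
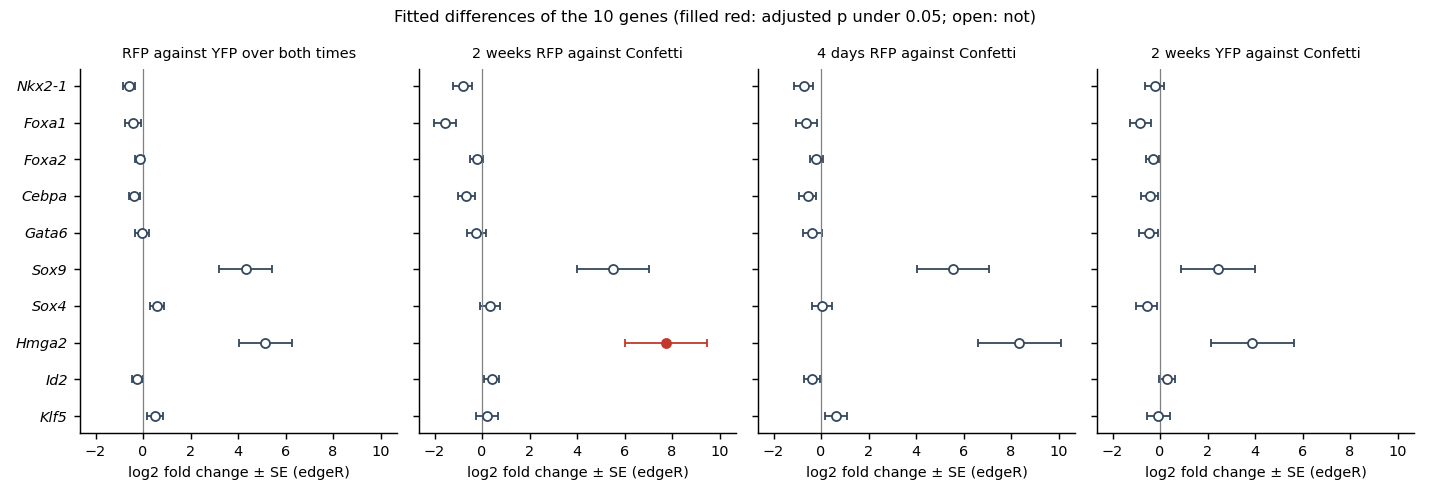
Fitted log2 fold changes (x axis, points with bars of 1 SE, edgeR) of the 10 genes (y axis) in 4 comparisons, filled red where the adjusted p was under 0.05. The Hmga2 point at 7.73 in 2 weeks RFP against Confetti is the only filled one, and the bars of Sox9 and Hmga2 are several times as long as those of the other 8 genes.

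Genes of the same pathways were read from 5 lists, each described by counts and a median. In 2 weeks RFP against Confetti, 3.46% of all genes tested passed as higher and 1.96% as lower, and the counts of each list are read against those shares. Of 20 other alveolar transcription factors, 18 were tested, and 2 passed in 2 weeks RFP against Confetti, both lower: Etv5, an ETS factor downstream of FGF signalling in AT2 cells (-2.15 ± 0.44, adjusted p = 0.0438), and Nfia (-1.66 ± 0.31, adjusted p = 0.0414). The list's median was -0.45 against 0.03 over all genes, and Irx2 (-1.18, adjusted p = 0.180) and Tfcp2l1 (-1.15, adjusted p = 0.0642) followed. Etv5 stood at 335 and 414 CPM in Confetti and at 115 and 52.7 in 2 weeks RFP, with 2 weeks YFP at 248 and 249. Of 12 AT2 genes known to be activated by Nkx2-1, Foxa2 or Cebpa, such as those of surfactant, all were tested and 1 passed, lower: Abca3, the lipid transporter of lamellar bodies (-1.43 ± 0.33, adjusted p = 0.0470), from 582 and 619 CPM in Confetti to 228 and 216. The median of these 12 was -0.64, with Lyz2 at -1.88 (adjusted p = 0.0871), Lamp3 at -1.23 (adjusted p = 0.107) and Slc34a2 at -1.01 (adjusted p = 0.0847).

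Of 18 other regulators of the lung tip and early development, 12 were tested, and 3 passed in that comparison, all higher. They were Etv4, a tip factor and FGF target (5.94 ± 0.91, adjusted p = 0.0338), and the Id2 relatives Id3 (2.53 ± 0.40, adjusted p = 0.0351) and Id1 (2.52 ± 0.51, adjusted p = 0.0438). The list's median was 1.84, and Hmga1, the paralog of Hmga2, was at 2.51 (adjusted p = 0.110). Etv4 stood at 0.362 and 0.393 CPM in Confetti (6 UMIs in each library) and at 17.3 and 29.7 in 2 weeks RFP, with 6.52 and 16.9 in 4 days RFP and at most 4.65 in YFP. Id3 was also high in YFP, at 139 and 220.5 CPM at 2 weeks against 25.1 and 29.97 in Confetti, where the RFP libraries had 137 and 180.2. Lin28a and Lin28b held 2 and 1 UMIs over all libraries and were not tested.

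Of 14 regulators of gut, liver and pancreas endoderm, 7 were tested and 2 passed, both higher. Onecut2, a hepatic and intestinal factor, had no UMI in Confetti and 1366 and 390 in the 2 weeks RFP libraries, at least 145-fold higher against a floor of 3 UMIs over both Confetti libraries (adjusted p = 0.0446). Foxa3, the Foxa paralog of liver and gut, stood at 0.725 and 0.785 CPM in Confetti and at 6.62 and 9.26 in 2 weeks RFP (3.39 ± 0.71, adjusted p = 0.0442). Hnf4a and Gata5, likewise at 0 UMIs in Confetti, were at least 46.2-fold and 27.03-fold higher but did not pass (adjusted p = 0.0595 and 0.103). The median of the list was 3.39, with or without those 3 genes at their bound. Without a UMI in Confetti, those 3 genes could pass the filter on low counts only through Red2Kras libraries. The filter therefore favours higher values in this list, and the median is a description only. Of 8 other Klf genes, all tested, 2 passed, both higher: Klf2 (2.67 ± 0.54, adjusted p = 0.0438) and Klf7 (1.41 ± 0.30, adjusted p = 0.0442), with a median of 0.64 and with Klf6 at 1.36 (adjusted p = 0.101) and Klf4 at 0.88 (adjusted p = 0.249). Klf2 stood at 244 and 106 CPM in 2 weeks YFP, beside 216 and 88.4 in 2 weeks RFP. The calls of this comparison depend on single libraries: 747 genes passed with all 10 libraries, 1 without Confetti RFP and 1931 without 4 days RFP replicate 2.

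In RFP against YFP over both times none of the 55 list genes tested passed without the block. The medians were -0.49 for the alveolar factors, -0.73 for the AT2 genes (12 of 12 lower), 0.48 for the tip regulators, 1.82 for the gut factors and 0.15 for the Klf genes, against -0.03 over all genes. The gut median includes Onecut2 and Gata5, whose UMIs lay mainly in RFP libraries. As these carried them past the filter on low counts, the filter favours a higher median there. The greatest single differences were 4.66 ± 0.99 for Onecut2 (adjusted p = 0.0845), 4.28 ± 1.44 for Gata5 (adjusted p = 0.137) and 3.65 ± 0.56 for Etv4 (adjusted p = 0.0723). Myc (2.58), Hmga1 (2.22) and Mycn (2.00) followed among the tip regulators, and Etv5 (-1.09), Irx1 (-0.95), Irx2 (-0.84) and Srebf1 (-0.70) were the lowest alveolar factors.

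To see which cells carried the changes, alveolar cells were clustered without the 10 genes, and clusters were named by other markers: AT2-like (13628 cells), primed AT2-like (10026), DATP-like (2596), Cd177 mixed-like (1626) and cycling-like (1696). DATP, the damage-associated transient progenitor, is a keratin-rich intermediate of alveolar repair. Stress genes were among the 10 leading genes of some clusters, with Nfkbia and Atf3 in 1 AT2-like cluster and Hspa1b in more than 1 primed cluster. The airway gene Scgb1a1 was among the 10 leading genes of another AT2-like cluster. These names were rebuilt here and may differ from those of the study. Levels by state are CPM of the UMIs of that state, without TMM scaling, and clusters were not compared by a test.

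Nearly all Hmga2 UMIs of the RFP libraries lay in cells named DATP-like in this clustering. They held 76 of its 78 UMIs in 4 days RFP replicate 1 (97.4%) while making up 1.24% of its cells, and 99.8%, 98.5% and 99.1% of its UMIs in 4 days RFP replicate 2 and 2 weeks RFP replicates 1 and 2, where they made up 36.6%, 20.8% and 40.4% of cells. Within DATP-like cells, Hmga2 stood at 179 CPM in 4 days RFP replicate 1, 406 in replicate 2, 257 in 2 weeks RFP replicate 1 and 125 in replicate 2. The library with few DATP-like cells thus had a level inside the range of the other 3 within that state. In this clustering, 3 of the 4 YFP libraries were alike, with 64 of 65 UMIs, 31 of 32 UMIs and 15 of 15 UMIs in the 24, 29 and 6 DATP-like cells of 2 weeks YFP replicates 1 and 2 and 4 days YFP replicate 2. The 4 UMIs of 4 days YFP replicate 1 and the 2 and 7 of Confetti RFP and YFP all lay in AT2-like cells. In 4 days YFP replicate 2, 10 of the 15 UMIs came from a single cell.

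Outside the DATP-like, Cd177 mixed-like and cycling-like clusters, Hmga2 did not exceed 0.94 CPM in any library. Cells of the Cd177 mixed-like cluster, which made up 50.9% of 2 weeks RFP replicate 2, held 14 of its 1901 Hmga2 UMIs (0.736%). Sox9 was less restricted. DATP-like cells held 68.4% and 99.2% of its UMIs in the 4 days RFP libraries and 84.2% and 68.1% in the 2 weeks RFP libraries, and Cd177 mixed-like cells held 28.0% in 2 weeks RFP replicate 2 and 32.0% of the 25 UMIs in 2 weeks YFP replicate 2. In DATP-like cells Sox9 stood at 30.6 and 116 CPM in the 4 days RFP libraries and at 101 and 31.9 in the 2 weeks RFP libraries. Of the DATP-like cells, 334 formed a cluster of their own, led by Gzme, Spp1 and Mcpt8 and drawn by 93.7% from 2 weeks RFP replicate 1, in which Hmga2 stood at 247, Sox9 at 109 and Sox4 at 432 CPM. The name of that cluster depends on the clustering. With the 10 genes among the variable genes, a cluster of 293 cells with the same 3 leading genes was named Cd177 mixed-like, and DATP-like cells then held 69.8% of the Hmga2 and 54.5% of the Sox9 UMIs of 2 weeks RFP replicate 1, against 24.7% and 34.3% in Cd177 mixed-like cells. In the other 3 RFP libraries they still held 97.2% to 99.2% of the Hmga2 UMIs, but in 2 weeks YFP replicate 1 they held 36 of 65 (55.4%), with 32.3% in cycling-like and 12.3% in Cd177 mixed-like cells.

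The lineage factors split by state in a different way. Nkx2-1 stood at 336 CPM in AT2-like cells over all libraries, at 256 in primed AT2-like, 229 in cycling-like, 220 in Cd177 mixed-like and 132 in DATP-like cells. Cebpa stood at 242, 170, 115, 235 and 62.5 in that order, so that over all libraries it was close in Cd177 mixed-like and AT2-like cells and lowest in DATP-like cells. AT2-like cells made up only 1.19% of 2 weeks RFP replicate 2, the source of most Cd177 mixed-like cells. That closeness is thus between cells of mostly different libraries. Foxa1 stood at 13.6 in Cd177 mixed-like cells, 86.8% of which came from 2 weeks RFP replicate 2, the library lowest in Foxa1. Within that library it was 12.5 in Cd177 mixed-like, 14.6 in DATP-like and 16.2 in cycling-like cells, whereas in 2 weeks RFP replicate 1 it was 21.1, 35.9 and 33.0. Over all libraries, Foxa2 ran only from 47.9 to 61.5 over the 5 states and Gata6 from 44.9 to 67.8.

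Within single libraries, Nkx2-1 and Cebpa were lower in DATP-like than in primed AT2-like cells. In 4 days RFP replicate 2, Nkx2-1 stood at 187 CPM in primed and 60.7 in DATP-like cells, in 2 weeks RFP replicate 1 it was 244 and 101, and in 2 weeks RFP replicate 2 it was 230 and 183. Cebpa was 189.9 and 23.8, 179 and 58.5, and 171 and 76.1 in the same libraries. In cells outside the DATP-like, Cd177 mixed-like and cycling-like clusters, Nkx2-1 stood at 336 and 391 CPM in Confetti RFP and YFP, at 293 and 186 in 4 days RFP, at 362 and 227 in 4 days YFP, at 246 and 235 in 2 weeks RFP and at 318 and 243 in 2 weeks YFP. There Nkx2-1 was lower in RFP than in YFP in 4 of 4 pairs of the same number and time (10.1% of all genes in those cells) and also below Confetti in all 4 RFP libraries (6.09% met both). Cebpa was lower in RFP in 1 of 4 such pairs in those cells. For Nkx2-1, the value of 2 weeks RFP replicate 2 rested on 103 cells and 298 UMIs, at 235 against 243 CPM in its pair. The clusters behind these cells also differed by library. A primed cluster drawn by 85% from 2 weeks YFP replicate 1 had Nkx2-1 at 317 CPM, and 1 drawn by 77.1% from 2 weeks RFP replicate 1 had it at 237.

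Id2 took the opposite extremes of both states that were frequent in 2 weeks RFP replicate 2: 622 CPM in Cd177 mixed-like cells, 252 in AT2-like, 313 in primed, 343 in cycling-like and 135 in DATP-like cells. In 2 weeks RFP replicate 2 it was 639 in Cd177 mixed-like against 122 in DATP-like cells, and in replicate 1 it was 529 against 165. Klf5 was 354 CPM in DATP-like against 85.8 in primed AT2-like cells of 4 days RFP replicate 2, 246 against 115 in 2 weeks RFP replicate 1 and 122 against 82.2 in replicate 2, where 33 AT2-like cells stood close to it at 118. Sox4 was 187 against 65.3, 322 against 132 and 210.2 against 165 in the same libraries. In 4 days RFP replicate 1, however, Sox4 was lower in the 46 DATP-like cells (134) than in AT2-like cells (163.5).

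**Figure D3:**
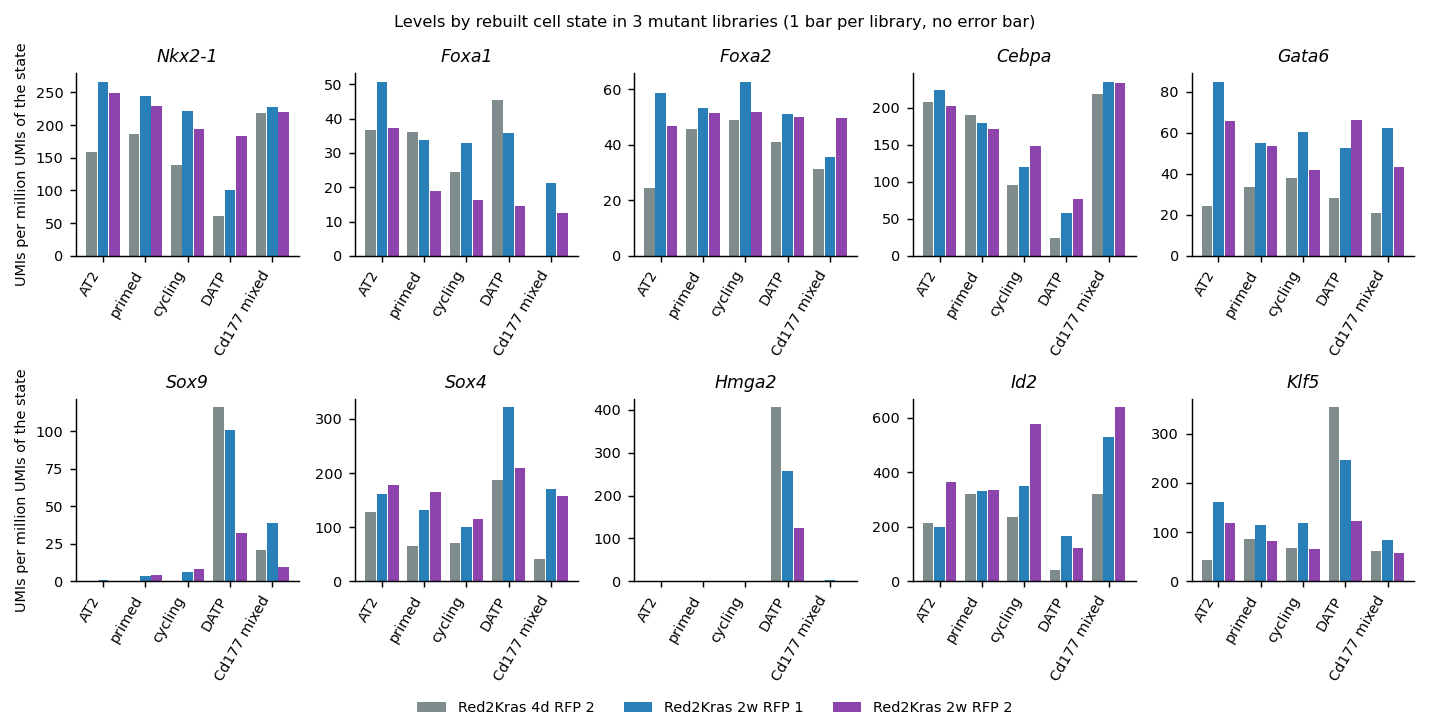
CPM (y axis, linear from 0) of each gene in 5 rebuilt cell states (x axis) of the 3 mutant libraries rich in DATP-like cells, 1 bar per library and no error bar. Hmga2 and Sox9 bars stand in the DATP-like state, Nkx2-1 and Cebpa bars dip there, and Id2 is highest in Cd177 mixed-like cells of both 2 weeks libraries.

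Cells were next thinned to 2000 UMIs each, so that shares of cells with a UMI could be set side by side across depths. Hmga2 was seen in 16.9% of cells of 4 days RFP replicate 2 (14.96 to 18.9%, exact 95% binomial interval) and in 0.269% of replicate 1 (0.129 to 0.494%), in 7.46% (6.67 to 8.32%) and 6.03% (5.17 to 6.98%) of the 2 weeks RFP libraries, and in 0.0526% to 0.397% of the Confetti and YFP libraries. In immune cells pooled over all libraries, which should lack it, the share was 0.453% (median 7089 UMIs per cell, against 5557 in alveolar cells), above the Confetti, YFP and 4 days RFP replicate 1 shares. Those shares alone therefore do not show expression. Unthinned, the RFP shares were 23.6%, 0.484%, 14.7% and 13.7% in that order. Sox9 was seen in 5.81%, 0.108%, 4.45% and 3.32% of thinned cells of those 4 libraries, against 0.0824% of immune cells. Intervals cover counting error only.

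Nkx2-1 was seen in 48.8% and 52.4% of thinned Confetti RFP and YFP cells, in 44.7% and 22.0% of the 4 days RFP libraries and in 33.7% and 35.6% of the 2 weeks RFP libraries, against 2.89% of immune cells. Its 4 days YFP shares were 51.6% and 35.8% and its 2 weeks YFP shares 47.2% and 38.0%. Cebpa was also seen in 16.1% of immune cells and Sox4 in 31.7% of endothelial cells, so these genes are not particular to alveolar cells. Foxa1 went from 13.1% and 14.1% in Confetti to 6.99% and 2.64% in 2 weeks RFP, with 9.52% and 4.46% in 2 weeks YFP.

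Within DATP-like cells, cells with and without an Hmga2 UMI were compared in the 3 libraries with enough of them. Nkx2-1 was seen less often beside Hmga2: in 5.86% (3.24 to 9.63%) of 239 cells with Hmga2 against 12.7% (9.04 to 17.1%) of 284 cells without it in 4 days RFP replicate 2. In 2 weeks RFP replicate 1 the shares were 9.40% (6.33 to 13.3%) of 298 against 19.5% (16.3 to 23.1%) of 543 cells, and in replicate 2 they were 12.7% (8.05 to 18.8%) of 165 against 36.5% (33.4 to 39.6%) of 954 cells. The intervals of the 2 weeks libraries did not overlap, whereas those of the 4 days library did.

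Cebpa was also seen less often beside Hmga2 in 2 weeks RFP replicate 1, in 5.70% (3.36 to 8.98%) against 12.2% (9.53 to 15.2%), and with overlapping intervals in the other 2 libraries. Sox9, Sox4 and Klf5 leaned the other way. Sox9 was seen in 26.8% (21.9 to 32.3%) of cells with Hmga2 against 13.8% (11.02 to 17.0%) without it in 2 weeks RFP replicate 1, in 9.09% against 5.77% in replicate 2 and in 16.7% against 15.1% in 4 days RFP replicate 2, where the intervals of the last 2 pairs overlapped. Klf5 was seen in 51.0% against 42.3%, 44.6% against 36.1% and 26.1% against 18.8% of cells, with overlapping intervals in each library, and Sox4 in 30.1% against 22.9%, 48.3% against 36.5% and 33.9% against 29.98%, where only the intervals of 2 weeks RFP replicate 1 did not overlap. Shares of Foxa1, Foxa2, Gata6 and Id2 differed by less than their intervals in all 3 libraries. Median depth before thinning was 5300.0 against 5676 UMIs in the 4 days library, 15404 against 19209 in 2 weeks RFP replicate 1 and 12319 against 12018 in replicate 2. Cells of 1 library are not replicates, so these shares carry no test.

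**Figure D4:**
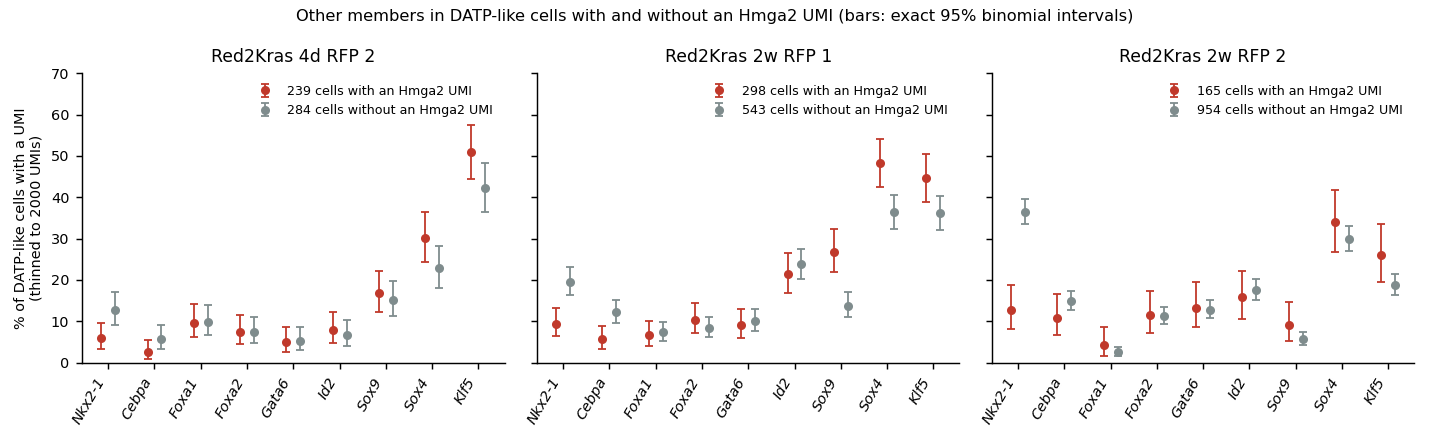
Share of DATP-like cells with a UMI of each other gene (y axis, % of cells thinned to 2000 UMIs) among cells with an Hmga2 UMI (red) and without one (grey) in 3 mutant libraries, with exact 95% binomial intervals as bars. Nkx2-1 is lower beside Hmga2 in each panel, at 5.86% against 12.7%, 9.40% against 19.5% and 12.7% against 36.5%.

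Over the 10 libraries, the genes closest in pattern were found by Pearson correlation of log2(CPM + 1) among all 13776 genes tested, as a description over libraries that share groups. Nudt13 (0.995), Myo5c (0.989) and Polr3gl (0.987) were closest to Nkx2-1, and Gm46404 (0.986), Thra (0.979) and Mxd4 (0.973) to Cebpa. Nras (0.995), Itgb4 (0.993) and Sgms2 (0.991) were closest to Sox9, and Nbl1 (0.992), Dusp5 (0.991) and Slc4a11 (0.991) to Hmga2. Among the 10 genes themselves, Nkx2-1 ran with Cebpa (0.899) and against Hmga2 (-0.936), and Foxa2 ran with Gata6 (0.882).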

How the data were processed

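UMI counts per gene and cell of 10 single-cell libraries (10x 3′ chemistry) were deposited by the authors as unnormalised matrices without empty droplets, made with Cell Ranger (3.1.0 per the submitters' processing notes, 5.0.1 per the file headers) on GRCm38, with FastQC 0.11.3 and MultiQC 1.8. Here, cells with at least 1000 genes, at most 50000 UMIs and at most 15% mitochondrial UMIs were kept, and genes seen in at least 3 cells. Cells were clustered with scanpy 1.11.5 (10000 counts per cell, 5000 variable genes without the 10 genes of interest, 30 components, 20 neighbours, Louvain resolution 0.8), and clusters were named where at least 3 markers were seen in 25% of cells. Doublets were kept and removed in an alternative. UMIs of alveolar cells were summed per library and tested with edgeR 4.0.16 (TMM, filterByExpr, quasi-likelihood F test, Benjamini-Hochberg over all genes) in R 4.3.3, in 1 fit of 6 groups (13776 genes) and 1 fit of time and colour over 8 Red2Kras libraries (12840 genes), which gave the difference over both times. Confetti was the mean of its 2 libraries. DESeq2 1.42.0 was an alternative, with its size factors, no filter on low counts, other cell sets, the replicate number as a block and each library left out. The 2 colours of 1 number and time appear to come from 1 pool, per the methods; over 13776 genes their deviations correlated at 0.472 (4 days) and 0.627 (2 weeks), and those of other same-numbered pairs at 0.0218 to 0.296. The tests were tried on simulated counts first. Shares used cells thinned to 2000 UMIs (alternative 4000) and exact 95% binomial intervals, which cover counting error only. The 10 genes, the gene lists and the tests were chosen with earlier results of these data known. In each comparison all 10 genes could be named, with, from each list, every gene that passed and up to 4 genes with the greatest absolute difference, and the 3 genes most correlated with Nkx2-1, Cebpa, Sox9 and Hmga2. Lin28a, Lin28b and the genes that name clusters were chosen after their values were seen.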

Additional observations from a re-analysis of the deposited data

Results flagged for a closer look

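In 2 cases every library of a group lay on one side of both Confetti libraries at 4 days and on the other side at 2 weeks. Id2 in RFP cells was -0.37 ± 0.33 against Confetti at 4 days, with both libraries lower, and 0.40 ± 0.33 at 2 weeks, with both libraries higher. The difference between the times, tested directly, was 0.77 ± 0.33 (edgeR, adjusted p = 0.449), so it did not pass over all genes. Sox9 in YFP cells was -1.11 ± 2.07 against Confetti at 4 days, with both libraries lower on 2 and 4 UMIs, and 2.45 ± 1.55 at 2 weeks, with both libraries higher on 43 and 25 UMIs. The difference between those times was 3.56 ± 1.79 (edgeR, adjusted p = 1.00). No group held the 4 libraries that a check for a single outlying library needs.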

How the results depend on the processing

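The counts of the 10 genes that passed moved with these settings. In RFP against YFP over both times, 0 passed, against 2 with DESeq2's Wald test and 2 without the filter on low counts (Sox9 and Hmga2 each time). At 4 days, RFP against YFP and RFP against Confetti went from 0 to 2 under DESeq2 and to 2 without the filter. There 0.82% and 1.87% of all genes passed under DESeq2, and 504 and 821 of 20847 without the filter. At 2 weeks, RFP against Confetti went from 1 to 3 under DESeq2 and to 3 without the filter (Foxa1, Sox9 and Hmga2). There 16% of all genes passed under DESeq2 and 3247 of 20847 without the filter. With all filtered cells and with all barcodes it went to 0, where 0 and 1 of all genes passed. Without the filter, 2 also passed in RFP against YFP at 2 weeks, 2 weeks YFP against Confetti, YFP 2 weeks against 4 days and the interaction, where 1381, 538, 194 and 55 of 20847 genes passed. Leaving out 1 library at a time gave 0 to 2 in RFP against YFP over both times, in each RFP against Confetti comparison and in RFP against YFP at 4 days; a group left with 1 library is assumed to vary like the others. Over all genes, the calls of RFP against YFP over both times went from 0 to 1263 under DESeq2 and to 1938 without the filter, and those of 2 weeks RFP against Confetti from 747 to 2209 and 3247. DESeq2's size factors and the removal of doublets changed no call of the 10 genes. The cause of these shifts was not tested.

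With the replicate number alone as a block over the 8 Red2Kras libraries, 2 of the 10 genes (Sox9 and Hmga2) and 924 of all genes passed in RFP against YFP over both times, and with the block within each time 4 (Nkx2-1, Sox9, Sox4 and Hmga2) and 2228 passed. The replicate block changed no call of the 10 genes in the other comparisons it was fitted for.

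With all barcodes, the sign turned for Foxa2 in RFP against YFP over both times (0.00900), Gata6 in RFP against YFP over both times (0.11), Sox4 in 4 days RFP against Confetti (-0.065), Sox9 in RFP 2 weeks against 4 days (0.18), Id2 in YFP 2 weeks against 4 days (-0.0385) and Nkx2-1 in the interaction (0.084). With all filtered cells, the sign turned for Gata6 in RFP against YFP over both times (0.098), Sox4 in 4 days RFP against Confetti (-0.019), Sox9 in RFP 2 weeks against 4 days (0.096), Id2 in YFP 2 weeks against 4 days (-0.040) and Nkx2-1 in the interaction (0.13). Without the filter on low counts, the sign turned for Foxa2 in RFP 2 weeks against 4 days (0.034), Sox9 in RFP 2 weeks against 4 days (0.026) and Nkx2-1 in the interaction (0.041). With the replicate block, the sign turned for Sox9 in RFP 2 weeks against 4 days (1.03), Hmga2 in RFP 2 weeks against 4 days (0.47) and Nkx2-1 in the interaction (0.024).

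Leaving out 1 library at a time turned the sign of these uncalled differences, given with their lowest and highest values. In RFP against YFP over both times, these were Gata6 (-0.20 to 0.19). In RFP against YFP at 2 weeks, these were Foxa2 (-0.14 to 0.32), Id2 (-0.25 to 0.34) and Klf5 (-0.21 to 1.00). In RFP against YFP at 4 days, these were Foxa1 (-0.33 to 0.17), Gata6 (-0.92 to 0.14) and Sox4 (-0.18 to 1.16). In 2 weeks RFP against Confetti, these were Klf5 (-0.24 to 0.50). In 4 days RFP against Confetti, these were Foxa2 (-0.46 to 0.012), Gata6 (-0.99 to 0.071) and Sox4 (-0.24 to 0.26). In 2 weeks YFP against Confetti, these were Klf5 (-0.79 to 0.41). In 4 days YFP against Confetti, these were Nkx2-1 (-0.45 to 0.076), Foxa2 (-0.030 to 0.24), Cebpa (-0.34 to 0.13), Gata6 (-0.48 to 0.25), Sox4 (-1.13 to 0.20), Id2 (-0.13 to 0.40) and Klf5 (-0.37 to 0.019). In RFP 2 weeks against 4 days, these were Nkx2-1 (-0.55 to 0.62), Foxa2 (-0.24 to 0.23), Cebpa (-0.48 to 0.41), Gata6 (-0.31 to 0.75), Sox9 (-1.05 to 4.48), Hmga2 (-1.59 to 3.70) and Klf5 (-0.84 to 0.011). In YFP 2 weeks against 4 days, these were Nkx2-1 (-0.30 to 0.23), Foxa1 (-0.79 to 0.084), Sox4 (-0.77 to 0.56), Id2 (-0.097 to 0.43) and Klf5 (-0.64 to 0.57). In the interaction, these were Nkx2-1 (-0.49 to 0.68), Cebpa (-0.13 to 0.76), Sox9 (-4.58 to 0.92), Sox4 (-0.27 to 1.07), Hmga2 (-3.99 to 1.30) and Klf5 (-0.98 to 0.23).

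Depth limits Hmga2 and Sox9 in wildtype cells, where 2 to 15 UMIs per library at 4 days and in Confetti set the denominators. With 2 libraries a group, a difference that missed the threshold is not shown to be absent. Cell states were rebuilt here: at resolution 1.5, 3 of 30 state levels moved by more than their spread, and 7 of 30 with the 10 genes among the variable genes.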
